A study of Mus musculus with 12 samples.

Results

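The Rab GTPase genes were chosen by symbol: protein-coding RefSeq genes named Rab with a number and at most 1 letter and further digits, which leaves out partner genes such as Rab3gap1 and Rab11fip1. There were 59 of them among 21883 protein-coding genes, on 18 chromosomes. Their TET2 binding sites were taken from 2 deposited lists, and a site was given to the gene whose start or end lay nearest to its midpoint, up to 100 kb away. The symbol rule uses no measured value, but the family was chosen with earlier results of these data known.

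Rab proteins are small GTPases that sit on the membranes of transport vesicles and organelles. Exchange factors load them with GTP, which lets them bind tethers and motors. GTPase-activating proteins switch them off, and a dissociation inhibitor extracts them from the membrane. Granulocytes, monocytes and mast cells depend on this traffic for granule release, phagocytosis and receptor recycling. In humans, loss of RAB27A causes a form of Griscelli syndrome, in which secretory granules of immune cells and pigment granules of melanocytes fail to dock. TET2 oxidizes 5-methylcytosine, the methylated base found mostly at CpG dinucleotides, and is often mutated in myeloid leukemia.

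The study mapped TET2 on chromatin of mouse blood-forming cells in suspension culture by immunoprecipitation and sequencing (ChIP-seq), using a rabbit polyclonal antibody raised to the TET2 N terminus. The immortalized hematopoietic culture, called myeloid cells here, carried AML1-ETO from the retroviral construct MigR1-AML1-ETO, with genotype Tet2fl/fl in the wild-type and Tet2-/- in the knockout libraries. The acute myeloid leukemia culture, called AML cells here, had genotype Npm1+/cA; Fl3+/ITD and no transgene, and its knockout was also Tet2-/-. TET2 was precipitated in 2 wild-type and 2 knockout libraries of each culture, and 1 IgG and 1 input library of the wild-type cells completed the 12. AML1-ETO was in every myeloid library and the Npm1 and Fl3 alleles were in every AML library. All cells grew in stem cell factor at 50 ng/ml with interleukin 3 and interleukin 6 at 10 ng/ml each. The sources used here do not say whether libraries came from separate mice or clones.

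After overlapping sites were merged, the AML list held 6895 sites and the myeloid list 18822. Of these, 6086 AML sites and 17141 myeloid sites lay within 100 kb of a protein-coding gene's end. The lists hold positions only, with no height, p-value or value per library, so the depth is unknown and no site has a replicate error. Intervals below are exact, treat genes or sites as independent, and cover counting error over them only. The targeted gene could not be checked in single libraries for the same reason. A difference between the lists cannot be told apart from the fact that the myeloid list is 2.73 times as long.

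Several promoters are printed here because they show the range met by the family: Rab21 had a TET2 site at its start in both lists, Rab5a and Rab1a had one in the myeloid list only, and the starts of Rab27a and Rab31, the members with most myeloid sites, had none in either list. Each sequence comes from RefSeq on GRCm38.p6, which has the chromosome coordinates of mm10, and runs 5′ to 3′ in the direction of transcription from 250 bases before the start to 50 after it. Capitals mark CpG dinucleotides.
Rab21, chr10:115315542-115315841, minus strand: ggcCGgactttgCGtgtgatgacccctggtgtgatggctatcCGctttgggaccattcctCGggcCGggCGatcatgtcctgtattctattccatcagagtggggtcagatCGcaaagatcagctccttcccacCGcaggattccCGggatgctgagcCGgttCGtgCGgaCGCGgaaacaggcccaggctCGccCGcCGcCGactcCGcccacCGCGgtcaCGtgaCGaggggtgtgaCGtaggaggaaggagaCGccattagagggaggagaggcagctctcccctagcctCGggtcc
Rab5a, chr17:53478984-53479283, plus strand: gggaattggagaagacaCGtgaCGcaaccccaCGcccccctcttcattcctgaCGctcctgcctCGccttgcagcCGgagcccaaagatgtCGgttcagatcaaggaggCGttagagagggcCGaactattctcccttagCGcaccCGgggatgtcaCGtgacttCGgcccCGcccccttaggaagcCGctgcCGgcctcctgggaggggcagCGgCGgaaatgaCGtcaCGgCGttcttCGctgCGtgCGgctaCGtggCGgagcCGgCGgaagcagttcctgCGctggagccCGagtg
Rab1a, chr11:20201162-20201461, plus strand: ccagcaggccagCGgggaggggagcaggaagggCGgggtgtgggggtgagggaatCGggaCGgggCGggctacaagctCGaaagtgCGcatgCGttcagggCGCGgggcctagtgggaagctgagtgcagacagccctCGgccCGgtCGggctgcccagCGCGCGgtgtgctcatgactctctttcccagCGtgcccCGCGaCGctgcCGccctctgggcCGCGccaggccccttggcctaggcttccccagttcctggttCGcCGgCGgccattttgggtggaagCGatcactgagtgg
Rab27a, chr9:73044560-73044859, plus strand: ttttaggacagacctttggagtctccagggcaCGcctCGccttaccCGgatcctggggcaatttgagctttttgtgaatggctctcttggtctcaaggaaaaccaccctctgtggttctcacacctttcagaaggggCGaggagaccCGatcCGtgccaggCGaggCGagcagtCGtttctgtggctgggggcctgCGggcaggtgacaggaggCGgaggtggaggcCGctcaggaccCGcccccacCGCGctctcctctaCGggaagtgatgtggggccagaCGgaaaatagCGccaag
Rab31, chr17:65772703-65773002, minus strand: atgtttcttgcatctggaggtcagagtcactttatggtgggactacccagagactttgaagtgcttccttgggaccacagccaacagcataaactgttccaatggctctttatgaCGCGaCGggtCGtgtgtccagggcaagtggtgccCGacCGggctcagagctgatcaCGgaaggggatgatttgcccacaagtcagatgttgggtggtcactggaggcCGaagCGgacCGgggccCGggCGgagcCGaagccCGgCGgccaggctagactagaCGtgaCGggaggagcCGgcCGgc

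TET2 sites were found at Rab genes in both cultures. In the AML list 22 of the 59 genes had at least 1 site (37.3%, 95% interval 25.0 to 50.9), beside 18.6% of all protein-coding genes. In the myeloid list 41 had a site (69.5%, 56.1 to 80.8), beside 40.0% of all genes. Of the 59 genes, 19 had a site in both lists (32.2%, 20.6 to 45.6; 16.6% of all genes), 22 in the myeloid list alone (37.3%; 23.4% of all genes) and 3 in the AML list alone (5.08%; 2.03% of all genes). The 15 genes with no site in either list made up 25.4% of the family (15.0 to 38.4) and 57.9% of all genes. These shares describe the family, and none was tested against the background.

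The genes held 28 AML sites (exact Poisson 95% interval 18.6 to 40.5) and 88 myeloid sites (70.6 to 108). A gene's territory is all sequence for which one of its ends is the nearest gene end, up to 100 kb away. Per Mb of territory the Rab genes had 7.14 AML sites (4.74 to 10.3) and all genes had 3.59. The myeloid list gave 22.4 sites per Mb (18.0 to 27.6) at Rab genes and 10.1 at all genes. Rab genes had a median territory of 45.3 kb, close to the 46.4 kb of all genes, and a median length of 23.2 kb against 17.2 kb. Territories take no account of how easily a stretch can be sequenced or called. Sites of a gene cluster: 34 of the 88 myeloid sites lay at the 6 members with at least 5. Such genes made up 10.2% of Rab genes and 2.82% of all genes. The Poisson intervals treat sites as independent, so they can be too narrow.

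**Figure D1:**
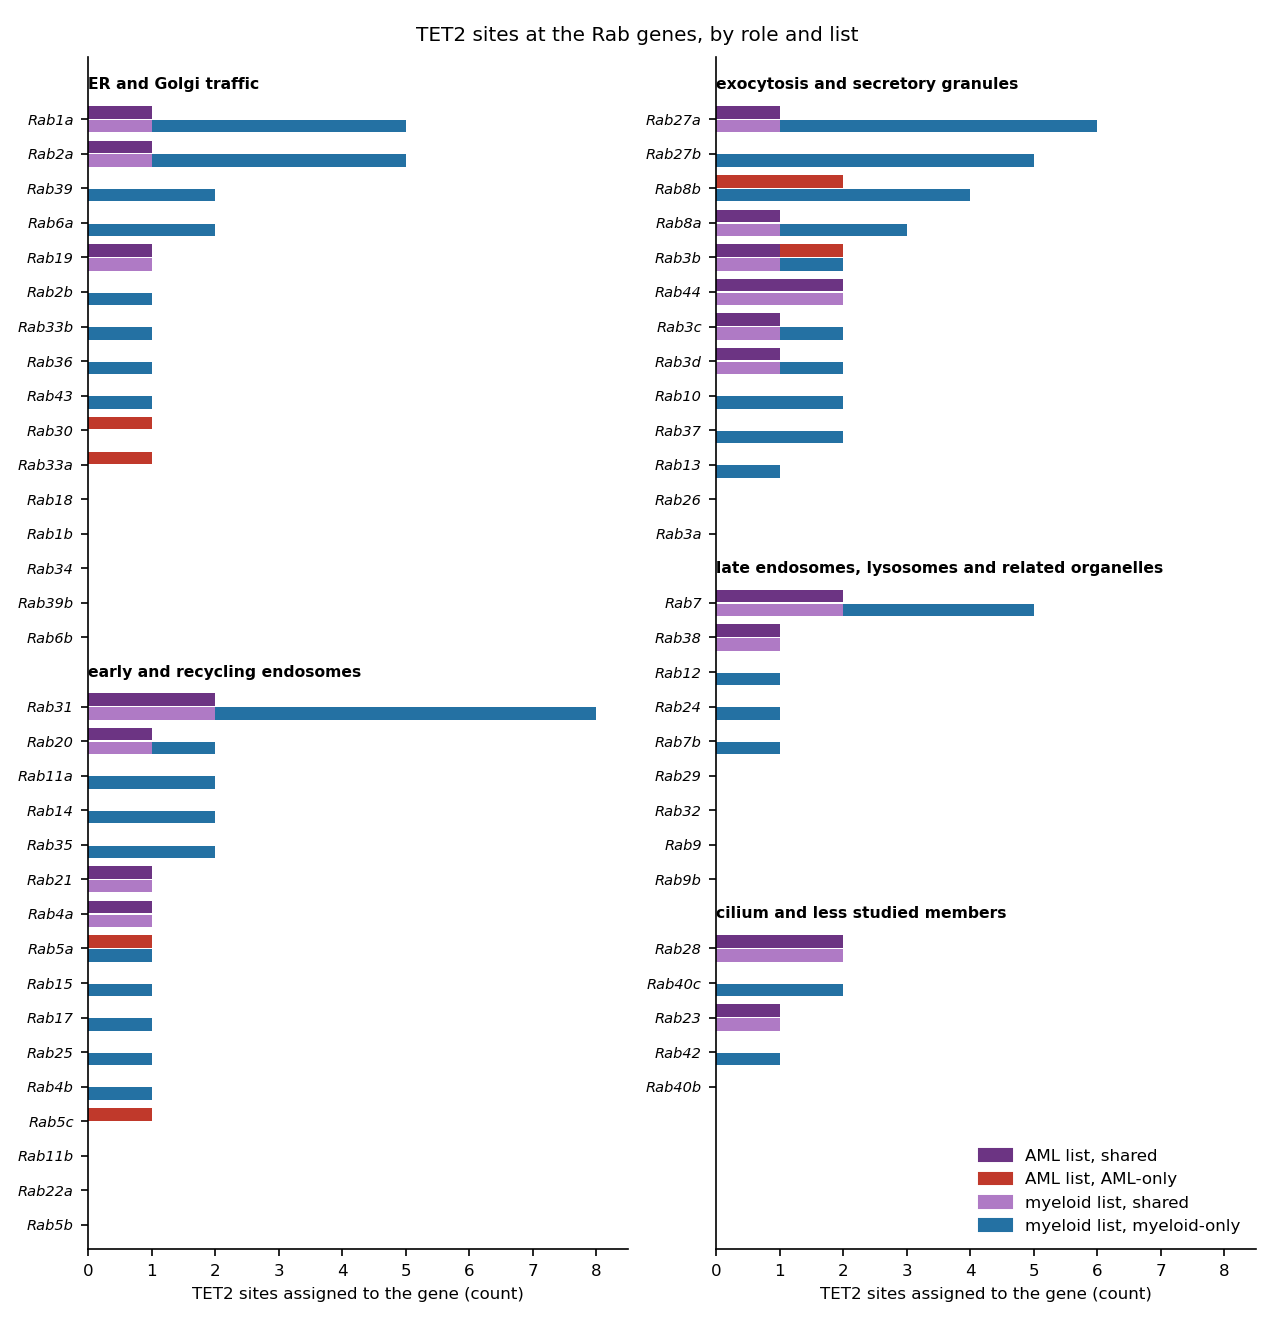
Number of TET2 sites assigned to each of the 59 Rab genes, grouped by role, with AML sites in the upper bar and myeloid sites in the lower bar of each gene. Colours separate sites shared by the lists from those of 1 list; Rab31 has the longest bar with 8 myeloid sites, and no gene has more than 2 AML sites.

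Genes of exocytosis and secretory granules had sites in 11 of 13 cases in the myeloid list (84.6%, with 40.0% of all genes). In the AML list it was 7 of 13 (53.8%, with 18.6% of all genes). They held 31 myeloid and 10 AML sites, where their territories gave 11.4 and 4.04 expected at the rate of all genes. Rab27a, which docks secretory granules and lysosome-related organelles at the plasma membrane (chromosome 9, 73044810 to 73097623), had 6 myeloid sites and 1 AML site, where its territory gave 0.563 and 0.200 expected. All 6 lay inside the gene, from 7.86 to 26.3 kb from its nearer end, and spanned 31.0 kb. The AML site lay wholly within 1 of them, 25.6 kb downstream of the nearest annotated start. Only 1.55% of all genes had as many as 6 myeloid sites.

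Rab27b, its close relative in granule release (chromosome 18, 69979131 to 70141633), had 5 myeloid sites and no AML site (2.19 and 0.777 expected). A count of 0 in 1 gene has an exact Poisson upper limit of 3.69, so the AML count is not separable from its expectation. The 5 sites formed a group 21.3 kb wide in the interior of the gene, 67.3 to 79.2 kb from an end. Sites of both Rab27 genes thus lay in the gene body and none within 1 kb of an end.

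Rab44, a large Rab with a role in mast cell degranulation in mice (chromosome 17, 29114128 to 29148980), was the 1 member with an AML site at a gene end. It had 2 sites in each list (0.163 AML and 0.458 myeloid expected), and both AML sites were shared. One pair lay 2.58 kb outside the gene. The other covered its lower-coordinate end, with midpoints 0.0425 kb (AML) and 0.00850 kb (myeloid) from it. RefSeq's promoter table has no entry for Rab44, so its strand is not given here.

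Rab8a and Rab8b both deliver vesicles to the plasma membrane. Rab8a had 1 AML site and 3 myeloid sites (0.102 and 0.286 expected), and the AML site, 8.24 kb downstream of the start, was shared. Rab8b had 2 AML sites and 4 myeloid sites (0.333 and 0.939 expected), and it was the 1 member with more than 1 AML-only site. Its AML sites ended 0.997 and 1.27 kb short of the nearest myeloid site, and no site of Rab8b was shared. The other AML-only site of this group was at Rab3b, 2.76 kb from the nearest myeloid site.

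Of the Rab3 genes, which act in regulated secretion, Rab3d, Rab3b and Rab3c had 2 myeloid sites each (0.399, 1.02 and 2.88 expected). They had 1, 2 and 1 AML sites (0.142, 0.364 and 1.02 expected), and 1 AML site of each was shared. Rab3a, the main Rab of synaptic vesicles, had none. Rab10, Rab37 and Rab13 had 2, 2 and 1 myeloid sites (1.92, 0.391 and 0.155 expected) and no AML site. Rab26 had no site.

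Genes of early and recycling endosomes had a myeloid site in 12 of 16 cases (75.0%, with 40.0% of all genes). An AML site was found at 6 (37.5%, with 18.6% of all genes). The group held 23 myeloid and 7 AML sites (7.42 and 2.64 expected). Rab31, which moves cargo between the trans-Golgi network and endosomes (chromosome 17, 65651726 to 65772752), had 8 myeloid sites (exact Poisson 3.45 to 15.8; 1.29 expected), more than any other Rab gene. Only 0.507% of all genes had 8 or more. Every one lay inside the gene, and 6 of the 8 fell within a 20 kb window, 35.0 to 53.9 kb downstream of the start. Its 2 AML sites (0.457 expected) were both shared, and 1 of them lay in that window.

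Rab5a, Rab5b and Rab5c drive fusion of early endosomes, and none of their AML sites was shared. Rab5a had 1 AML site 9.57 kb downstream of its start, and 1 myeloid site 0.113 kb upstream of it. Rab5c had 1 AML site, 48.8 kb from the nearest myeloid site of any gene, and no myeloid site. Rab5b had no site. Counts this small do not separate the lists at any of these genes.

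Rab20 and Rab21 were occupied in both lists. Rab20, a Rab of maturing phagosomes, had 1 AML and 2 myeloid sites. Rab21, which acts in endocytosis of integrins, had 1 site in each list, and they shared 762 bp. Their midpoints lay at -0.442 kb (AML) and -0.177 kb (myeloid) from the annotated start, on its upstream side. That start's promoter is printed above. Rab11a, Rab14 and Rab35, Rabs of recycling and endosome-to-Golgi traffic, each had 1 myeloid site at the start, 1 elsewhere and no AML site. Rab4a had 1 shared site (0.368 AML and 1.04 myeloid expected). Rab4b, Rab15, Rab17 and Rab25 had 1 myeloid site each. Rab11b and Rab22a had no site.

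Genes of the endoplasmic reticulum and Golgi had a myeloid site in 9 of 16 cases (56.2%, with 40.0% of all genes). An AML site was found at 5 (31.2%, with 18.6% of all genes). Rab1a, needed for transport from the endoplasmic reticulum to the Golgi (chromosome 11, 20201412 to 20226856), had 5 myeloid sites and 1 AML site (0.705 and 0.250 expected). All 5 lay at or upstream of its start, at 0.295, 7.85, 13.4, 32.2 and 42.3 kb, and the site at 32.2 kb was the shared one. Rab2a, which acts in traffic at the Golgi (chromosome 4, 8535469 to 8607702), also had 5 myeloid sites and 1 AML site (2.16 and 0.766 expected). Its myeloid sites were spread over 133 kb, with 2 inside the gene body, 1 at an end and 2 outside.

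Other Golgi members had few sites. Rab6a and Rab39 had 2 myeloid sites each, and Rab2b, Rab33b, Rab36 and Rab43 had 1. Rab19 had 1 shared site. Rab30 and Rab33a had 1 AML site each and no myeloid site; those AML sites lay 162 and 14.7 kb from the nearest myeloid site of any gene. Rab18, Rab1b, Rab34, Rab39b and Rab6b had no site in either list.

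Of the 9 genes of late endosomes, lysosomes and related organelles, 5 had a myeloid site (55.6%, with 40.0% of all genes). An AML site was found at 2 (22.2%, with 18.6% of all genes). The group held 9 myeloid and 3 AML sites (6.45 and 2.29 expected). Rab7, the main Rab of late endosomes (chromosome 6, 87999106 to 88045270), had 5 myeloid sites and 2 AML sites (0.753 and 0.267 expected). None lay in the interior of the gene: the 5 included 1 at the start, 3 upstream of it at 2.74, 8.66 and 15.6 kb, and 1 that lay 6.15 kb past the opposite end. Both AML sites were shared, and they were the outermost of the 5. Rab38, a Rab of melanosomes and lysosome-related organelles, had 1 shared site (0.783 AML and 2.21 myeloid expected). Rab7b, Rab12 and Rab24 had 1 myeloid site each, all at a gene end. Rab29, Rab32, Rab9 and Rab9b had no site.

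The remaining 5 genes are those of cilia and the less studied Rabs. They held 6 myeloid and 3 AML sites (3.64 and 1.29 expected). Rab28 had 2 sites in each list (0.752 AML and 2.12 myeloid expected). Rab23, a regulator of Hedgehog signalling, had 1 in each (0.176 and 0.497 expected). All sites of both genes were shared. Rab40c had 2 myeloid sites and Rab42 had 1. Rab40b had no site.

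**Figure D2:**
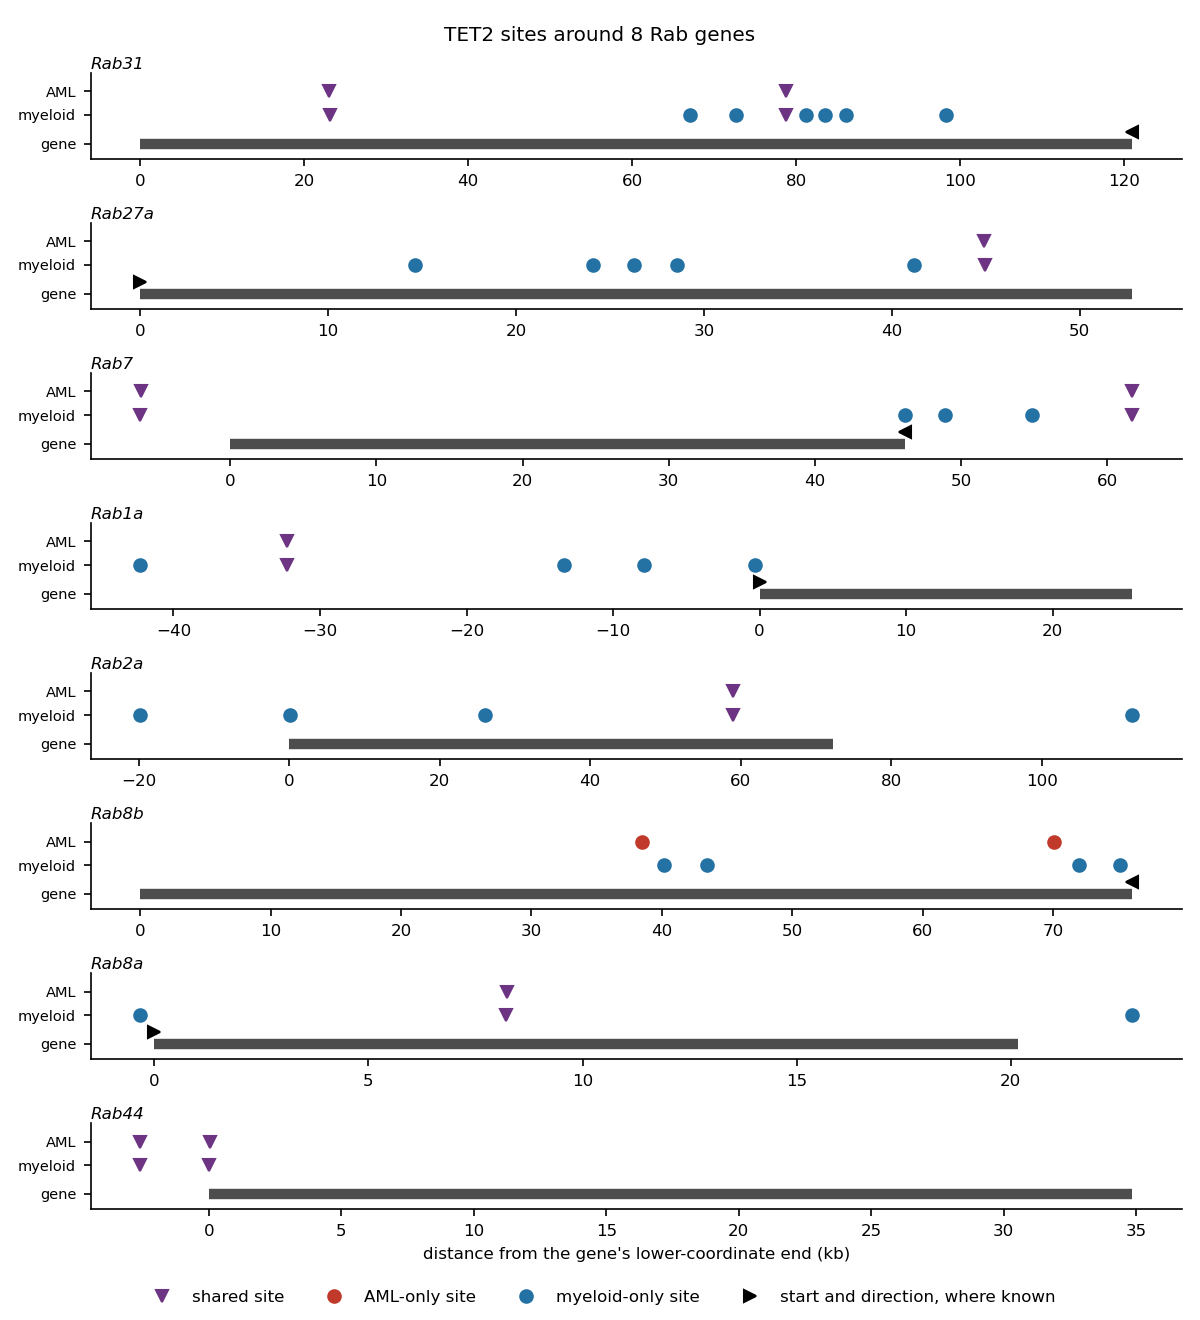
TET2 sites around 8 Rab genes, drawn as site midpoints by distance in kb from the gene's lower-coordinate end, with AML sites in the upper row, myeloid sites in the middle row and the gene as a grey bar. Triangles are shared sites and the arrow is the start where the strand is known; the 8 myeloid sites of Rab31 and the 6 of Rab27a lie inside the genes, those of Rab1a at or upstream of its start, and none of the Rab8b sites is shared.

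Sites were also counted within sets of close relatives. Of 16 sets of paralogs with 35 genes, 5 had a myeloid site at every member, 10 at some members and 1 at none. Rab1a had 5 myeloid sites and Rab1b had none, on territories of 69.8 and 8.51 kb. Rab31 had 8 and Rab22a none, on 127 and 91.7 kb. Rab9 and Rab9b formed the set with no site. A myeloid site was found at 69.5% of all Rab genes, so unrelated members would often differ as well. Differences between relatives were not tested or set beside those of unrelated genes.

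Most AML sites at Rab genes were shared. Of the 28 AML sites, 21 overlapped a myeloid site (75.0%, 55.1 to 89.3), beside 72.6% of all assigned AML sites. Shared AML sites at Rab genes were covered by the myeloid site over a median of 99.3% of their width, and over 79.8% at the least. In 16 of the 22 genes with an AML site, all AML sites were shared, a share not computed over all genes. The 7 AML-only sites lay at Rab3b, Rab5a, Rab5c, Rab8b, Rab30 and Rab33a. Seen from the myeloid list, 21 of 88 sites were shared (23.9%, 15.4 to 34.1; 25.8% of all assigned myeloid sites). The shares at Rab genes and at all genes differ by less than the counting intervals.

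The myeloid list had more sites at 32 of the Rab genes, the AML list at 3 (Rab30, Rab33a and Rab5c), and 9 genes had equal numbers above 0. These directions were not counted over all genes, so they are not shown to be particular to Rab genes. At Rab genes the myeloid list held 3.14 times as many sites as the AML list. The whole lists differ by 2.73 times, but they include 1681 myeloid and 809 AML sites over 100 kb from a gene end. Among sites assigned to a gene there were 17141 myeloid and 6086 AML sites. Among unshared sites, 9.46% at Rab genes and 11.6% at all genes were AML-only. Each gene with at least 5 unshared sites was tested for a different split of AML-only and myeloid-only sites than at other genes (two-sided Fisher's exact test, Benjamini-Hochberg adjustment over 344 genes). This called 3 genes (0.872%), all leaning to the AML list, and 0 of the 4 Rab genes tested. At an unadjusted p under 0.05 there were 20 genes and 0 Rab genes. Rab8b had 2 AML-only and 4 myeloid-only sites (Fisher's exact p = 0.147, adjusted p = 1.00). Rab31, Rab27a and Rab27b had 6, 5 and 5 myeloid-only sites and 0 AML-only ones (exact p = 1.00 each), counts at which the test cannot show a lean to the longer list.

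**Figure D3:**
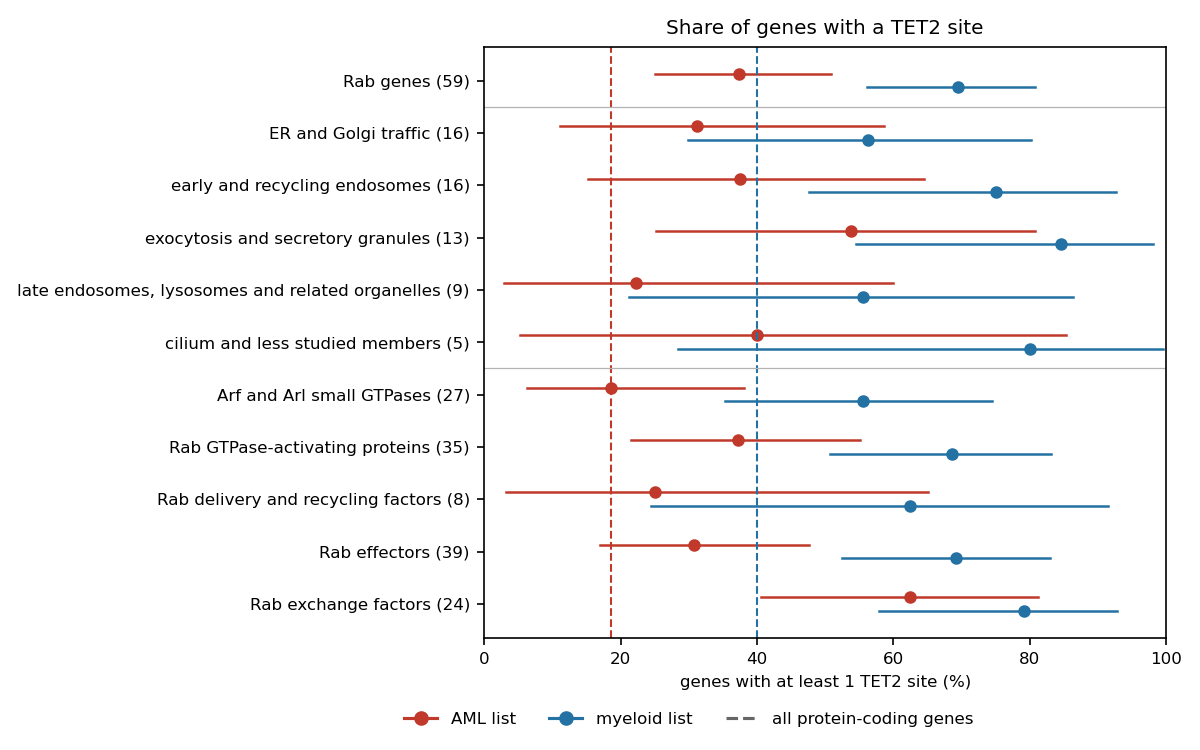
Share of genes with at least 1 TET2 site, in percent, for the Rab genes, their 5 role groups and 5 related gene lists (number of genes in brackets). Points are the AML and myeloid lists with exact 95% intervals, and dashed lines are all protein-coding genes at 18.6% and 40.0%; the Rab genes stand at 37.3% and 69.5%.

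Gene ends were counted at the outermost annotated coordinates of each gene, so a start inside a gene, as at Rab21, is not among them. A myeloid site lay within 1 kb of such an end at 23 of the 59 genes (39.0%, 26.5 to 52.6; 18.5% of all genes). An AML site did so at 1, Rab44 (1.69%, 0.0429 to 9.09; 2.74% of all genes). Of the 88 myeloid sites 26.1% were gene-end sites (17.3 to 36.6), beside 24.8% of all assigned myeloid sites, so a larger share of Rab genes was reached while the share of sites at ends was within counting error of the background. Of the 23 gene-end sites, 22 overlapped no AML site, as did 3746 of the 4250 myeloid gene-end sites of all genes. The midpoint lay within 0.1 kb of the end at 11 of the 23.

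RefSeq's promoter table gave the strand of 48 of the 59 genes. At these, 18 of 20 myeloid gene-end sites lay at the start and 2 at the opposite end, those of Rab20 and Rab24. This split was not computed over all genes, so it is not shown to be particular to Rab genes. A myeloid site overlapped the promoter or lay within 1 kb of an annotated start at 19 of the 48 genes (39.6%, 25.8 to 54.7; 22.2% of all genes with an entry). The genes were Rab1a, Rab2b, Rab33b, Rab39, Rab43 and Rab6a of the Golgi group, Rab11a, Rab14, Rab21, Rab35, Rab4b and Rab5a of the endosome group, Rab13, Rab3d, Rab8a and Rab8b of the exocytosis group, and Rab7, Rab12 and Rab40c. In the AML list it was Rab21 alone (2.08%, 0.0527 to 11.1; 2.53% of all). Of the 23 gene-end sites, 4 were also within 1 kb of an end of another protein-coding gene. They were the start sites of Rab13 (Rps27), Rab2b (Tox4) and Rab6a (Mrpl48) and the site at the opposite end of Rab24 (Nsd1), and the lists do not tell which gene such a site belongs to. The site of Rab2b lay inside Tox4, and those of Rab6a inside Mrpl48.

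Away from the start, Rab sites lay more often downstream than upstream. Downstream takes in the gene body and the sequence past the opposite end. No share over all genes was computed for these positions, so they are not shown to be particular to Rab genes. Of 22 AML sites at genes with a known start, 1 lay within 1 kb of it, 3 farther upstream and 18 farther downstream. The 54 myeloid-only sites comprised 18 within 1 kb, 10 upstream and 26 downstream. At gene ends, 32.8% of the unshared myeloid Rab sites and 4.76% of the shared ones were found, beside 29.4% and 11.4% over all genes, so unshared myeloid sites lay at gene ends more often in the whole list too. Gene bodies beyond 1 kb of an end held 20 of the 28 AML sites (71.4%, 51.3 to 86.8; 46.8% of all assigned AML sites) and 43 of the 88 myeloid sites (48.9%, 38.1 to 59.8; 42.6% of all). Rab sites were about as wide as others: the median was 734 bp for AML sites and 708 bp for myeloid ones, with 721 and 711 bp over all genes.

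**Figure D4:**
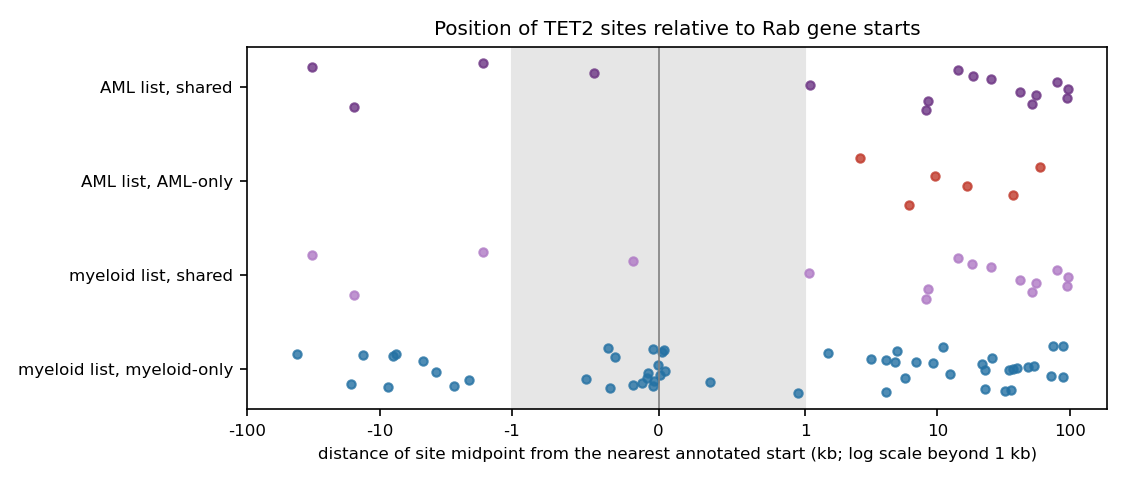
Distance in kb of each TET2 site from the nearest annotated start of its Rab gene, for the 48 genes with a known strand, linear within 1 kb (grey band) and logarithmic beyond, with negative values upstream. Of the 54 myeloid-only sites 18 fall in the band, against 1 of the 16 shared myeloid sites and 0 of the 6 AML-only sites; over all genes, 29.4% of unshared and 11.4% of shared myeloid sites lay at gene ends.

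Rab promoters with a myeloid site were rich in CpG dinucleotides. The table held 60 promoter entries for the 48 genes, since some have several starts. The 22 entries with a myeloid site had a median of 26.5 CpGs in 300 bases (quartiles 24.2 and 28.8), and 38 entries without one had 14.0 (9.00 and 21.5). All promoters gave 23.0 with a myeloid site and 9.00 without. The lowest count with a site was 16, at Rab11a. Without a site the counts ran from 3 to 45, so many CpGs also occurred at promoters with no site, such as that of Rab10 (43) or 1 of the starts of Rab23 (45). In the printed examples, Rab5a had 30 CpGs, Rab1a 27, Rab21 26, Rab31 19 and Rab27a 18. Overlapping entries, such as those of Rab43 and Rab7, are not independent, and the comparison is a description with no test.

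**Figure D5:**
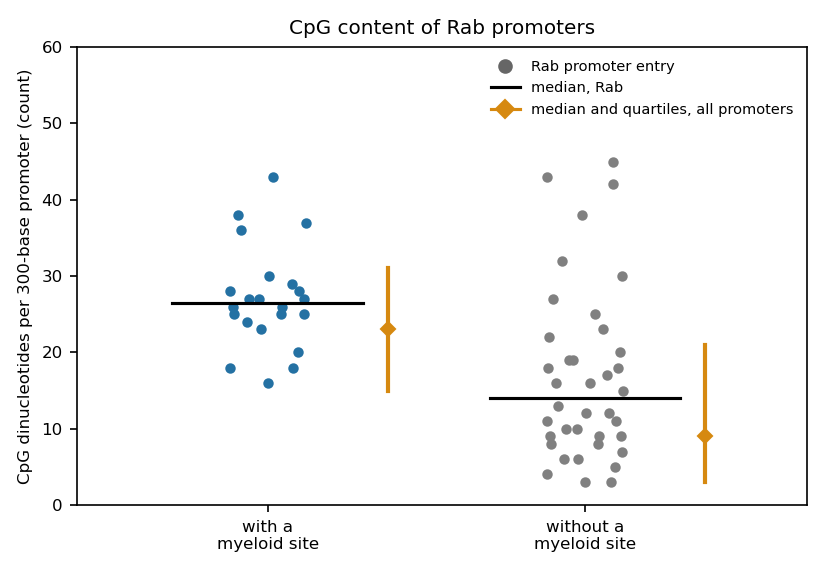
Number of CpG dinucleotides in each 300-base Rab promoter entry, with (22 entries) and without (38) a myeloid TET2 site at the start; black lines are medians, at 26.5 and 14.0. Orange diamonds and bars are the median and quartiles of all promoters of each kind.

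Motif letters were searched on either strand of the same promoters. The GC box GGGCGG was found in 19 of 22 Rab entries with a myeloid site (86.4%) and 22 of 38 without (57.9%), against 68.2% and 40.2% of all promoters. The ETS core CGGAAG was in 8 of 22 and 9 of 38 (36.4% and 23.7%; 41.7% and 15.6% of all). The RUNX letters TGTGGT were in 3 of 22 and 7 of 38 (13.6% and 18.4%; 13.5% and 15.4% of all). The E-box CACGTG was in 2 of 22 and 4 of 38 (9.09% and 10.5%; 11.2% and 6.92% of all), and the 2 with a site are the printed promoters of Rab21 and Rab5a. The spaced C/EBP letters TTNCNNAA (N is any base) were in 13.6% of Rab entries with a site and 36.8% without (31.3% and 38.9% of all). The PU.1 type ETS letters GAGGAA were in 22.7% and 15.8% (27.6% and 27.3% of all). The CCAAT box was in 50.0% and 39.5% (34.7% and 39.1% of all). Further motifs were searched and are not given here. The GC box, the ETS core and the E-box each contain a CpG and share that composition with the counts above. A match says nothing of binding.

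Genes that work with Rab proteins also carried sites, and their shares are to be read against the 18.6% (AML) and 40.0% (myeloid) of all genes. Among 24 exchange factors, AML sites were found at 15 (62.5%) and myeloid sites at 19 (79.2%). Rin3, an exchange factor of the Rab5 family, had 5 AML and 12 myeloid sites, and all 5 were shared. Dennd1b, which acts on Rab35, had 3 and 7 sites, Dennd4a, which acts on Rab10, had 3 and 5, and Rin2 had 2 and 4. Among 35 GTPase-activating proteins the numbers were 13 in the AML list (37.1%) and 24 in the myeloid list (68.6%). They held 26 AML and 81 myeloid sites (13.4 and 37.9 expected). Tbc1d8 had 6 and 9 sites, Evi5 had 2 and 10, Tbc1d2b had 3 and 5, and Tbc1d4, which acts on Rab10 in glucose transporter traffic, had 2 and 6.

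Of 39 effectors, the AML list reached 12 (30.8%) and the myeloid list 27 (69.2%). Rab11fip4, a Rab11 effector, had 1 and 9 sites, Eea1, the early endosome tether bound by Rab5, had 2 and 5, Sytl3 had 2 and 3, and the motor gene Myo5a had 1 and 3. Of 8 genes that prenylate, escort or recycle Rabs, 2 were in the AML list and 5 in the myeloid list (25.0% and 62.5%). They held 2 AML and 8 myeloid sites, with 1.94 and 5.46 expected. Rabif had 1 and 3 sites, Rabggta 1 and 2, and Chm and Gdi2 had 1 myeloid site each.

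Among other small GTPases, 5 of 27 Arf and Arl genes were bound in the AML list (18.5%, with 18.6% of all genes) and 15 in the myeloid list (55.6%, with 40.0% of all genes), with 2 and 3 sites at Arl11, 3 and 2 at Arl15, 1 and 2 at Arl14 and 0 and 2 at Arf1. The Arf and Arl genes held 8 AML and 21 myeloid sites, with 5.88 and 16.6 expected. The intervals of the shares of all these lists overlap that of the Rab genes in each cell type. Differences between lists were not tested.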

How the data were processed

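Both culture types were assayed with TET2 ChIP-seq, after crosslinking with 2 mM disuccinimidyl glutarate and 1% formaldehyde and shearing to 200 to 500 bp, per the labels' protocols. Trimmomatic, Bowtie2 and MACS2 with build mm10 are named in the submitters' processing notes. Versions, thresholds, controls and any pooling of replicates are not stated there. A single list of sites per culture was deposited by the authors, with chromosome, start and end per the file headers. Whether starts count from 0 or 1 is not stated, so positions are uncertain by 1 bp. Sites overlapping within a list were merged, and an unplaced contig with 1 AML site was not used. Genes came from a RefSeq table of GRCm38.p6 and starts from its promoter table, which matched 48 of 59 members. Sites were shared when they overlapped by at least 1 bp. Shares have Clopper-Pearson intervals. Fisher's exact test with Benjamini-Hochberg adjustment ran over all genes with at least 5 unshared sites and was checked on simulated data. In that check sites fell on genes independently, and the planted genes had far more AML-only sites than any Rab gene. It says nothing of clustered sites or of counts as small as those at Rab genes. Python 3.11.15, pandas 2.3.3, SciPy 1.17.1 and statsmodels 0.14.6 were used.

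The members, role groups and gene lists were chosen with earlier results of these data known. Planned Rab41 is not in the gene table, and 1 planned list of related genes is not reported here. Genes were named by a rule: the 8 members with most sites in each list, those with AML-only sites or a start site in both lists, and up to 4 genes per related list. Other members are given by their counts.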

Additional observations from a re-analysis of the deposited data

How the results depend on the processing

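The Rab results were recomputed under 10 alternatives, giving 50 values for 12 results: a 20 kb limit, all annotated genes, unmerged sites, other widths of a gene end, other overlap criteria, shared sites left out of the myeloid list, a lower minimum of unshared sites and, added after the data were seen, giving sites inside a gene to that gene. Of the 50, 46 stayed within 1.5 times the reported count or within the interval of the reported share. Within 20 kb, 37.1% of myeloid Rab sites lay at a gene end (34.9% over all genes), because distant sites drop out. Rab genes with an AML gene-end site numbered 2 with unmerged sites (2.76% of all genes) and 4 at a width of 2 kb (4.17% of all). Those with an AML site at the start numbered 3 at 2 kb (3.69% of all genes with an entry). These counts are too small to rank. Over the alternatives, 18 to 22 Rab genes had an AML site, beside 12.7% to 18.8% of all genes. A myeloid site was found at 34 to 41, beside 32.9% to 40.1% of all genes. Fisher's exact test called 0 Rab genes in each of its alternatives, with 2 to 7 tested. No paired analysis was possible because the lists hold no value per library. Leaving out a replicate or using a stricter peak threshold was not possible for the same reason.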

Other observations

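Of the 4 Rab genes on the X chromosome, 0 had a myeloid site and Rab33a had 1 AML site, while 41 of the 55 autosomal members had a myeloid site. On the X chromosome 17.4% of all 966 protein-coding genes had a myeloid site and 7.14% an AML site. With 4 genes the Rab counts cannot be separated from these shares.

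Rab37, which acts in secretion from mast cells and macrophages, overlaps Cd300lf, a myeloid inhibitory receptor gene. In addition to its 2 myeloid sites, 2 myeloid sites inside Rab37 were nearest to an end of Cd300lf and were counted there. A myeloid site inside Rab5b was nearest to Pmel, a melanosome protein gene, and was counted at Pmel. The site lists do not tell which of these genes such a site belongs to.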
